A study of Mus musculus with 7 samples.

Results

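Hair bundle genes were examined in damaged mouse utricles with and without Fos overexpression. They are 33 genes of 32285 in the count files, chosen by known function as parts of stereocilia and of the mechanotransduction complex. The list was read in 4 groups: 9 tip link and channel genes, 7 Usher and ankle link genes, 13 genes of the actin core, and 4 genes of the bundle membrane and its connectors. All 33 had enough reads to be tested. The sum of the 33 stood between 1729 and 1905 counts scaled to library size as CPM in the libraries with Fos overexpression. In those without it stood between 1371 and 1573 CPM. The sum was not adjusted for gene length and rests most on the genes with the most reads. Summed alone, the Usher and ankle link genes overlapped, at 413 to 487 CPM against 338 to 485 CPM.

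The data are 7 bulk RNA sequencing libraries of utricle explants from wild-type C57BL/6J mice taken at postnatal day 2, each made from 12 pooled utricles. All explants received 2 mM gentamicin for 24 h, an antibiotic that kills hair cells, and were collected at day 5 post-injury. The 4 Gent+Fos OE libraries came from explants that also received AAV-PHP.eB Fos for 48 h, a virus in which the CMV promoter, active in many cell types, drives mouse Fos. The 3 Gent libraries are labelled as gentamicin controls, and their labels name no virus. The study's text calls the comparison group of this experiment damaged controls or Gent-control, and elsewhere a control AAV group. The names under which the Gent counts were deposited contain letters that also stand for shRNA. Which virus, if any, these explants received was not settled here, so each fold change takes the labels as given. A library is a pool, and the errors below are those between pools, not between animals. The utricle was measured as a whole, so fewer cells of a type and less RNA per cell cannot be told apart.

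The hair bundle is the sensory organelle on the top of each hair cell, a staircase of actin-filled stereocilia. Tip links, made of cadherin-23 and protocadherin-15, run from the top of one stereocilium to the side of its taller neighbour and pull on the transduction channel, whose pore is formed by TMC proteins. Usher proteins anchor the tip links or form the ankle links at the base of the growing bundle, and bundling, capping and motor proteins set the length and stiffness of the actin core. Loss of many of these genes causes deafness or balance defects.

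Library totals ran from 27879889 to 34335214 counts, and Fos itself was higher with overexpression in every library. It stood at 151, 151, 167 and 149 CPM with overexpression and at 39.5, 40.6 and 34.6 CPM without, a rise of 2.01 ± 0.13 (log2 fold change ± SE, edgeR quasi-likelihood test, adjusted p = 0.000142). Gent replicate 2 stood apart from the others: its log2 deviations from the average of all libraries followed gene length across all tested genes with a Spearman rho of -0.495, where the other libraries ran from -0.226 to 0.317. Since many hair bundle genes are long, the main results are given as measured and after the trend with gene length was taken out of every library (the length correction). Values with no mention of it are as measured. Summed markers of some other cells also differed between the groups. Those of mesenchyme, Schwann cells and glia, neurons, endothelium and striated muscle overlapped. The 8 macrophage markers summed to 940 to 1561 CPM with Fos overexpression against 1734 to 2199 CPM, the 6 melanocyte markers to 45.7 to 50.9 CPM against 87.6 to 124 CPM, and the 14 supporting cell markers to 3274 to 3957 CPM against 2530 to 3223 CPM. The supporting cell markers went both ways. Of the 13 tested, 9 had a log2 fold change above 0 and 4 below, where 49.9% of all tested genes were above. Their median was 0.15, and 0.05 without Gent replicate 2. The part of these shifts in the hair bundle values was not tested.

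The comparison of Gent+Fos OE with Gent asks which genes differ when Fos is overexpressed after damage. None of the 33 hair bundle genes passed the limits stated in the study's methods in edgeR's test. These are an adjusted p under 0.01 with an absolute log2 fold change over 0.25. Of all 17155 tested genes, 0.134% were called higher and 0.28% lower at these limits. The values leaned upward all the same: 25 of the 33 had a log2 fold change above 0, against 49.9% of all tested genes. At an unadjusted p under 0.05, 14 hair bundle genes were higher and 0 lower, where 11.1% of all tested genes were higher and 13.4% lower. In 10 of the 33, each Gent+Fos OE library lay above each Gent library, against 11.3% of all tested genes, and in 0 it was the reverse (12.2%). The median log2 fold change was 0.29 over the hair bundle genes and -0.00075 over all tested genes. At an adjusted p under 0.05 edgeR gave 1 of the 33 higher, Pcdh15, and 0 lower, where 0.665% of all tested genes were higher and 1.19% lower. DESeq2, the tool of the study, called 1 of the 33, Pcdh15, where it called 1.75% of its 15678 tested genes higher and 2.14% lower. At an adjusted p under 0.05 it gave 7 higher (Pcdh15, Adgrv1, Eps8l2, Cdh23, Ptprq, Loxhd1 and Atp2b2) and 0 lower, where 4.34% of its tested genes were higher and 5.24% lower. Over all its tested genes DESeq2 gave 275 higher and 336 lower at an adjusted p under 0.01, and 681 and 821 under 0.05. The totals that the paper reports lie close to the latter pair. Limma-voom called 0 of the 33, where it called 21 of the 17155 tested genes higher and 44 lower. With sample quality weights, which give an outlying library less weight, it called 3, namely Pcdh15, Adgrv1 and Ptprq, where 3.1% of all tested genes were called higher and 2.51% lower.

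**Figure D1:**
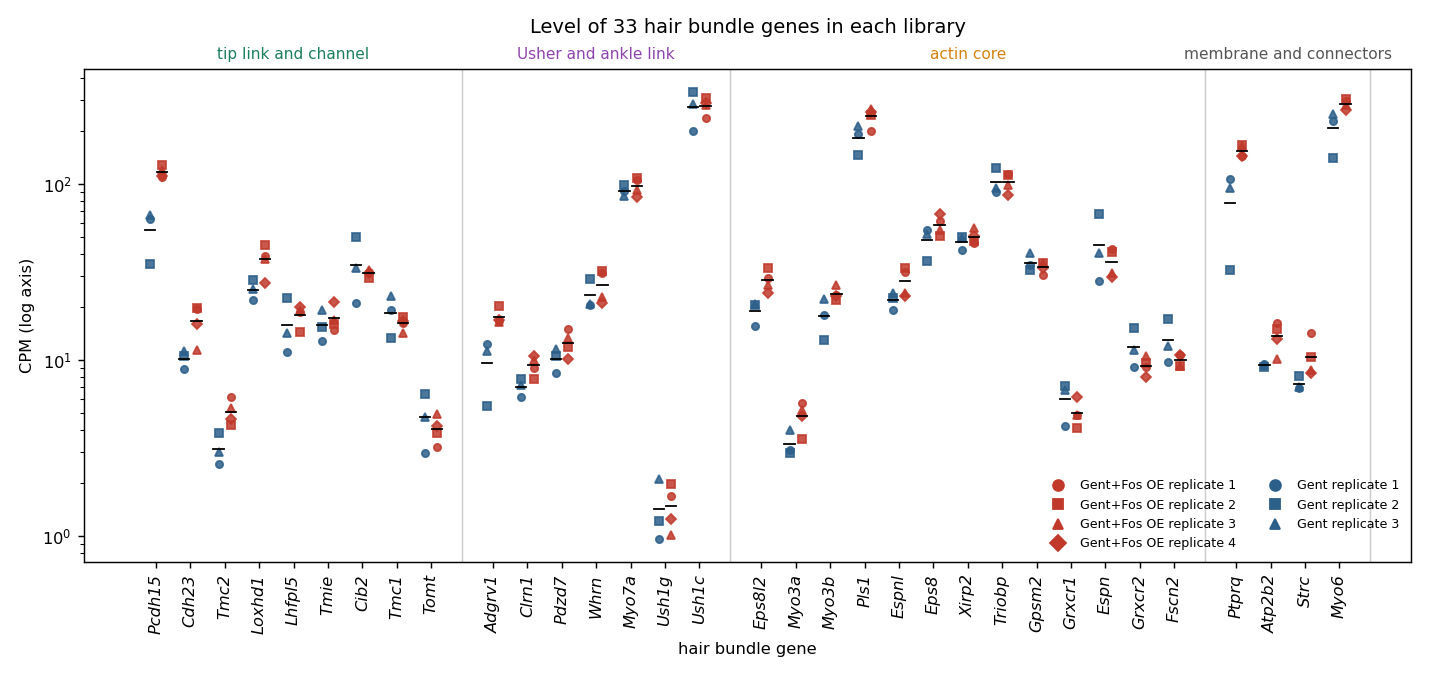
CPM of each hair bundle gene on a log axis, one point per library (red, Gent+Fos OE; blue, Gent; marker shape, replicate), with a bar at the mean of each group. Pcdh15 runs from 109 to 127 CPM in the red libraries and from 34.97 to 66.7 CPM in the blue ones, whereas Myo7a and Ush1c overlap.

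Among the tip link and channel genes, both tip link cadherins were higher in all libraries with Fos overexpression. Pcdh15 (ENSMUSG00000052613, chr10:73099342-74649737 on mm10), which encodes the lower part of the tip link, stood at 109, 127, 120 and 110 CPM in the Gent+Fos OE libraries. In Gent it stood at 63.2, 34.97 and 66.7 CPM. The groups did not overlap, and the lowest value was that of Gent replicate 2. The log2 fold change was 1.08 ± 0.21 (SE), 2.12-fold, with an adjusted p of 0.0288 in edgeR and an exact permutation p of 0.0286, the smallest that these 7 libraries allow. Without Gent replicate 2 it was 0.84, and Pcdh15 was then called (edgeR adjusted p = 0.00194). Leaving out any 1 Gent+Fos OE library took the edgeR adjusted p past 0.05, to between 0.0552 and 0.103, with log2 fold changes of 1.04 to 1.11, and the replicate block gave 1.16 with an edgeR adjusted p of 0.104. With the length correction it was 0.56 ± 0.12, and the groups still did not overlap.

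Cdh23 (ENSMUSG00000012819, chr10:60302748-60696490), which encodes the upper part of the tip link, stood at 19.6, 19.6, 11.5 and 16.1 CPM with Fos overexpression and at 8.83, 10.5 and 11.2 CPM without. Replicate 3 of Gent+Fos OE lay just above the highest Gent library. At a log2 fold change of 0.71 ± 0.20, Cdh23 did not pass (edgeR adjusted p = 0.100). With the length correction it was 0.20 ± 0.24 and the groups overlapped, and without Gent replicate 2 the corrected value was 0.47.

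Tmc1 (ENSMUSG00000024749, chr19:20783458-20954202) encodes the channel subunit of mature hair cells, and Tmc2 (ENSMUSG00000060332, chr2:130195194-130264445) the subunit that appears first in developing hair cells and persists in vestibular ones. Tmc2 stood at 6.15, 4.26, 5.32 and 4.60 CPM with Fos overexpression and at 2.57, 3.85 and 3.0 CPM without. Every Gent+Fos OE library was above every Gent library, at a log2 fold change of 0.69 ± 0.23 (edgeR adjusted p = 0.127). Tmc1 stood at 16.3, 17.4, 14.3 and 16.6 CPM against 19.2, 13.3 and 23.2 CPM, and Gent held both its highest and its lowest library. Its log2 fold change was -0.20 ± 0.19, with a 95% interval from -0.61 to 0.21, and without Gent replicate 3 it was -0.0073. The length correction gave 0.77 for Tmc2 and -0.34 for Tmc1.

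Loxhd1 (ENSMUSG00000032818), whose protein sits along the stereocilia membrane and is needed for transduction in mature hair cells, stood at 39.0, 45.2, 37.3 and 27.5 CPM with Fos overexpression and at 21.9, 28.2 and 25.1 CPM without. Replicate 4 of Gent+Fos OE lay within the Gent range. Loxhd1 had a log2 fold change of 0.57 ± 0.18, which did not pass (edgeR adjusted p = 0.113). It was 0.30 with the length correction, and 0.55 with it and without Gent replicate 2. The remaining genes of the transduction complex had small values. Lhfpl5 and Tmie, the subunits that tie the channel to the tip link, had log2 fold changes of 0.19 and 0.12, and Cib2, a calcium-binding partner of the TMC proteins, of -0.17. Tomt, needed to bring TMC proteins to the bundle, had -0.22, but 69.3% of its exonic bases are shared with other genes and reads there were not counted. Over the 9 genes, 4 were higher at an unadjusted p under 0.05 and 0 lower, where 11.1% of all tested genes were higher and 13.4% lower. With the length correction these were 2 and 1, against 8.14% and 14.9%. The median log2 fold change of the 9 was 0.19 as measured and 0.20 with the length correction, but without Gent replicate 2 it was 0.51 and 0.47, with Tmc1 at -0.40, Lhfpl5 at 0.51, Cib2 at 0.18 and Tomt at 0.06 as measured.

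Fos acts as part of AP-1, a dimer that binds sequences such as TGANTCA. The bases upstream of the start sites in RefSeq (GRCm38.p6, the same assembly as mm10) were searched for these letters, which read the same on both strands. Windows of 250 bases were listed for 27 of the 33 genes, 34 windows in all, and not used here for Loxhd1, Ptprq, Grxcr2, Eps8, Tmc2 and Ush1g. The letters occurred in 2 of the 34 windows, those of Myo3a and Xirp2, and in 6.75% of the 32851 windows of all genes. In all, 3 windows are shown 5′ to 3′, with TGANTCA in capitals: the 2 that hold it, and that of Pcdh15, the hair bundle gene with the lowest p, which does not. They lie at chr2:22227253-22227502 (Myo3a), chr2:67445752-67446001 (Xirp2) and chr10:73821617-73821866 (Pcdh15), all on the plus strand. The match starts 206 bases before the start site of Myo3a and 107 bases before that of Xirp2. Those of Xirp2 and Pcdh15 lie within the span that the count files give to the gene, at a start site downstream of its first base.
Myo3a: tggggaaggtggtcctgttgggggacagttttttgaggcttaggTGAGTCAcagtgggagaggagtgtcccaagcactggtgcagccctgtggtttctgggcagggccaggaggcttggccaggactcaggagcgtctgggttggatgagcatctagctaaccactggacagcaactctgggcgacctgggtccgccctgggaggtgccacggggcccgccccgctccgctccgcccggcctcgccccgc
Xirp2: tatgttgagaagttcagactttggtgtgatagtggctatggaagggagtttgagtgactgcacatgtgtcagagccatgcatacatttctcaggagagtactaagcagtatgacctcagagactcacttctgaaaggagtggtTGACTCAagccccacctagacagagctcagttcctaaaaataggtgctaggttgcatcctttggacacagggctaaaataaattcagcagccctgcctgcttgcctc
Pcdh15: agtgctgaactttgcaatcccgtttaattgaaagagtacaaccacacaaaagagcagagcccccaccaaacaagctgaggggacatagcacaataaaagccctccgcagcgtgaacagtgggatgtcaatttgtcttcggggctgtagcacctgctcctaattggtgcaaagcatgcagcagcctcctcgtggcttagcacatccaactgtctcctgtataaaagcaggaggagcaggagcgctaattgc
The matching windows belong to genes with log2 fold changes of 0.53 (Myo3a) and 0.09 (Xirp2), neither of which passed.

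Among the Usher and ankle link genes all 7 values were above 0, against 49.9% of all tested genes, and they ranged from 0.03 to 0.86. After the correction 5 of the 7 were, against 45.3%, with Myo7a at -0.17 and Whrn at -0.01. The largest was that of Adgrv1 (ENSMUSG00000069170, chr13:81095068-81633154), the very large receptor that forms the ankle links. It stood at 16.6, 20.2, 16.4 and 16.9 CPM with Fos overexpression and at 12.3, 5.51 and 11.2 CPM without. The groups did not overlap, with Gent replicate 2 far below the other Gent libraries. Its log2 fold change of 0.86 ± 0.25 had an adjusted p of 0.100 in edgeR, and it was 0.57 without Gent replicate 2 and 0.34 ± 0.15 with the length correction.

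Myo7a (ENSMUSG00000030761, chr7:98051060-98119524) encodes the motor that pulls on the upper end of the tip link and is the usual marker of hair cells. It stood at 104, 108, 91.6 and 84.3 CPM with Fos overexpression and at 90.9, 98.4 and 85.03 CPM without, so the groups overlapped. Its log2 fold change was 0.09 ± 0.13, with a 95% interval from -0.20 to 0.38. Ush1c, which encodes the scaffold harmonin, had 0.03 and a 95% interval from -0.36 to 0.42. Ush1g, a further scaffold of the tip link, rested on 28 to 73 counts a library and had 0.05 with an interval from -0.80 to 0.90. Whrn and Pdzd7, scaffolds of the ankle links, had log2 fold changes of 0.19 and 0.30, and of 0.36 and 0.32 without Gent replicate 2. Clrn1, a membrane protein lost in Usher syndrome, stood between 7.81 and 10.5 CPM against 6.16 to 7.76 CPM, and its groups did not overlap (0.40 ± 0.18, edgeR adjusted p = 0.191). The median of the 7 was 0.19 as measured and 0.11 with the length correction, and without Gent replicate 2 these were 0.32 and 0.24.

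The actin core genes lay on both sides of 0, with 8 of 13 above and 5 below, and a median of 0.09 as measured and -0.07 with the length correction. Eps8l2 (ENSMUSG00000025504, chr7:141338880-141363020), which encodes a capping protein that maintains stereocilia, was the one gene of the 13 whose groups did not overlap, where 11.3% of all tested genes were higher in that way and 12.2% lower. It stood at 29.3, 33.3, 26.7 and 23.9 CPM with Fos overexpression and at 15.6, 20.4 and 20.7 CPM without. The log2 fold change was 0.58 ± 0.16 (edgeR adjusted p = 0.0952) and 0.50 ± 0.16 with the length correction, and 32.2% of its exonic bases are shared with another gene. Its relative Eps8, which with Myo15a lengthens stereocilia, had 0.29 as measured, 0.12 without Gent replicate 2 and -0.04 with the length correction.

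Espn (ENSMUSG00000028943, chr4:152120331-152152371), which encodes the actin bundler espin, stood at 42.5, 40.8, 31.3 and 29.7 CPM with Fos overexpression and at 28.1, 66.9 and 40.5 CPM without. Gent replicate 2 was by far its highest library and Gent replicate 1 its lowest. The log2 fold change was -0.32 ± 0.26, and it was -0.61 ± 0.30 with the length correction, 0.07 without Gent replicate 2 and -0.03 with both. Fscn2 and Grxcr2 were also below 0, at -0.38 and -0.35, with Gent replicate 2 the highest library for both, and without it they had -0.14 and -0.15. Fscn2 encodes a fascin that cross-links actin, and Grxcr2 a protein that keeps the taperin scaffold at the stereocilia base. Grxcr1, a regulator of stereocilia width, had -0.27, and Gpsm2, part of the complex that marks the tallest row, -0.08, and both had -0.15 without Gent replicate 2. The class III myosins that carry espins to stereocilia tips were above 0, Myo3a at 0.53 and Myo3b at 0.42, as were the espin-like Espnl at 0.35 and the plastin Pls1 at 0.40. Without Gent replicate 2, Myo3a had 0.44, Myo3b 0.23, Espnl 0.37 and Pls1 0.26. None of these passed. Triobp, which builds the rootlet, and Xirp2, an actin-binding protein of stereocilia and of muscle, had 0.003 and 0.09 as measured and -0.41 and -0.35 with the length correction. The 10 striated muscle markers summed to at most 12.6 CPM in any library, 6 of them under 1 CPM, where Xirp2 stood between 41.9 and 56.2 CPM.

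All 4 membrane and connector genes were higher at an unadjusted p under 0.05, and their groups did not overlap, where 11.1% and 11.3% of all tested genes did the same. With the length correction 1 of the 4, Ptprq, did so by either measure, against 8.14% and 7.96%. Ptprq (ENSMUSG00000035916, chr10:107517049-107720051), which encodes the phosphatase of the shaft connectors, stood at 143, 166, 163 and 143 CPM with Fos overexpression and at 107, 32.3 and 94.7 CPM without. Gent replicate 2 held less than any other library. The log2 fold change was 0.98 ± 0.32 (edgeR adjusted p = 0.122), 0.60 without Gent replicate 2 and 0.86 ± 0.25 with the length correction. Atp2b2 (ENSMUSG00000030302, chr6:113743831-114042613), the pump that clears calcium from the bundle, stood at 16.1, 15.1, 10.2 and 13.2 CPM against 9.51, 9.10 and 9.33 CPM. Its Gent libraries were close together and its Gent+Fos OE libraries were not. Its log2 fold change of 0.55 ± 0.18 (edgeR adjusted p = 0.122) was 0.17 with the length correction, and 0.35 with it and without Gent replicate 2. Strc, which encodes stereocilin of the top connectors, had 0.51 and 0.38, and Myo6, the motor that anchors the membrane between stereocilia, had 0.47 and 0.16. Without Gent replicate 2, the log2 fold changes were 0.53 for Atp2b2, 0.57 for Strc and 0.25 for Myo6, and in the groups above they were 0.73 for Cdh23, 0.86 for Tmc2, 0.66 for Loxhd1 and 0.64 for Eps8l2.

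**Figure D2:**
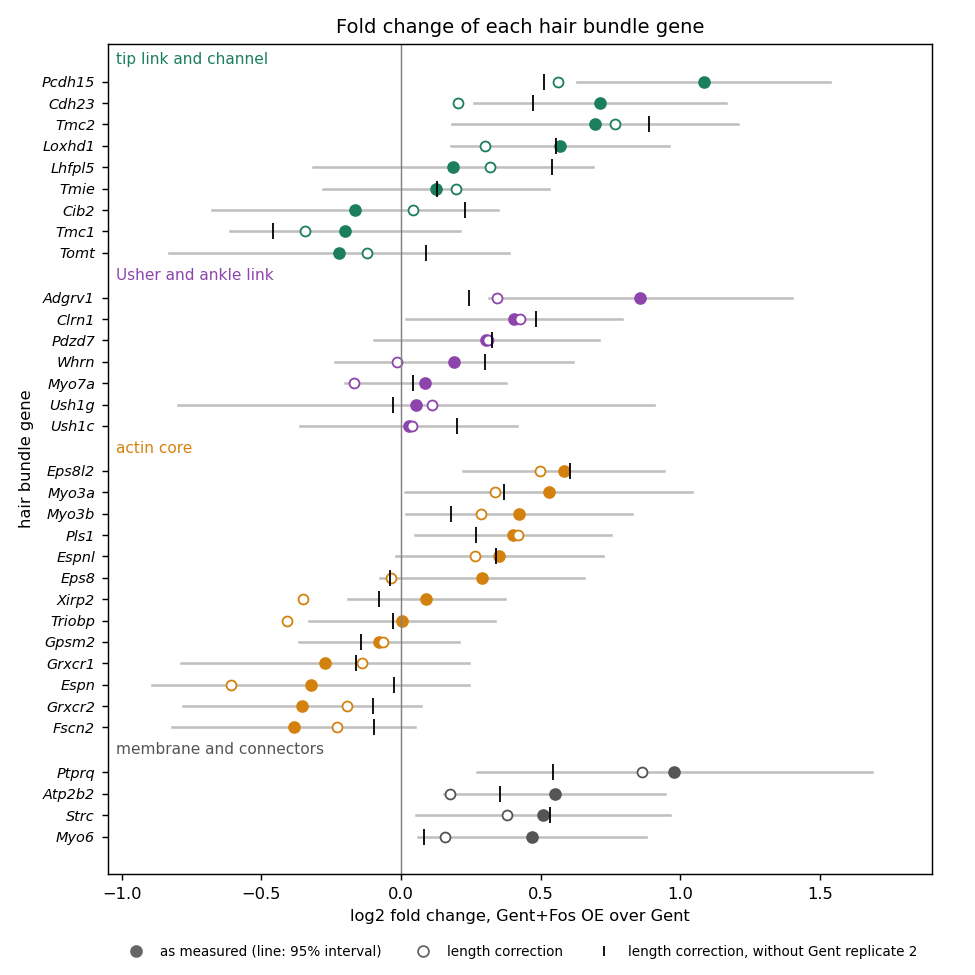
Log2 fold change of each hair bundle gene as measured (filled point, with a line for the 95% interval), with the length correction (open point), and with it but without Gent replicate 2 (tick). Pcdh15 moves from 1.08 to 0.56 and Cdh23 from 0.71 to 0.20 with the correction, whereas Tmc2 moves from 0.69 to 0.77.

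The fold changes of the hair bundle genes followed gene length. The hair bundle genes had a median length of 6229 bp, against 4084 bp over the tested genes, and 8 of the 33 were 10000 bp or more, where 8.6% of tested genes were. All 8 had a log2 fold change above 0, as did 88.3% of the 1475 tested genes of that length. At an unadjusted p under 0.05, 5 of the 8 were higher, against 36.5% of the 1475. The median was 0.51 for the 8 and 0.35 for the 1475 as measured, and 0.17 and -0.0016 with the length correction. Below the median length of tested genes, the 14 hair bundle genes gave a median of 0.04 and all tested genes gave -0.17. Above it, the 19 hair bundle genes gave 0.47 and all tested genes 0.13. These medians, without Gent replicate 2, were 0.14 and -0.08 below it and 0.37 and 0.05 above it. Spearman's rho of the log2 fold change with length was 0.541 over the 33 genes and 0.378 over all tested genes, and 0.048 and 0.067 after the correction. Without Gent replicate 2 it was 0.396 over the 33 and 0.189 over all tested genes as measured, and the median was 0.39 for the 8 long hair bundle genes and 0.18 for the 1475. These are correlations across genes that share the same libraries, given as a description. With the correction, 21 of the 33 were above 0, against 45.3% of all tested genes, and the median was 0.17, against -0.04.

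**Figure D3:**
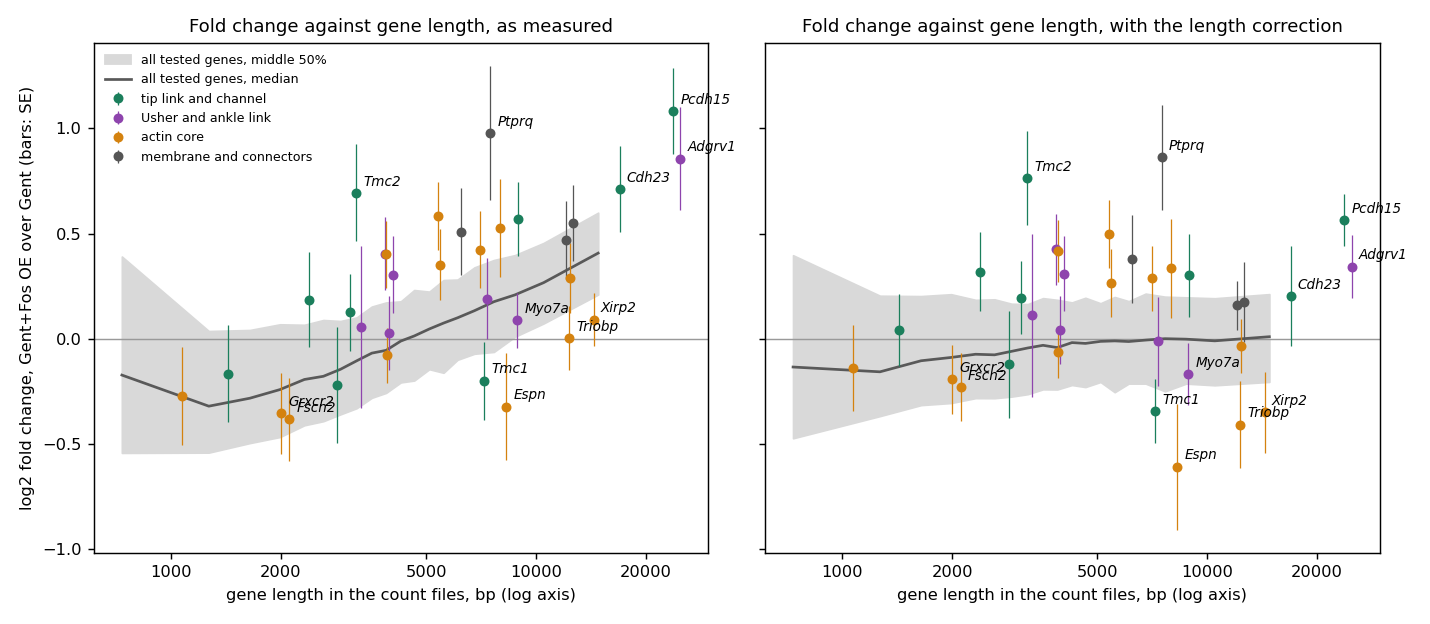
Log2 fold change against gene length in bp (log axis), as measured (left) and with the length correction (right). Points are hair bundle genes with their SE, the line is the median and the band the middle 50% of all tested genes in 20 length bins. As measured the line climbs with length and Pcdh15, Adgrv1 and Cdh23 lie at its far end, and with the correction the line is nearly flat.

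After the length correction, 7 hair bundle genes were higher at an unadjusted p under 0.05 and 1, Tmc1, was lower. Over all tested genes 8.14% were higher and 14.9% lower. None passed the limits, where 0.204% and 0.554% of all tested genes did. Those with groups that did not overlap were Pcdh15, Tmc2, Adgrv1, Clrn1, Eps8l2 and Ptprq on the higher side and Tmc1 on the lower side, that is 6 and 1 of 33 against 7.96% and 13.6% of all tested genes.

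The libraries within a group were not alike. The median deviation of the 33 genes from their mean over the 7 libraries was 0.17, 0.09, 0.05 and 0.06 on the log2 scale in the Gent+Fos OE libraries and -0.35, -0.12 and -0.03 in the Gent libraries. Gent replicate 1 was the lowest, and it stayed at -0.35 once the length trend was removed, whereas Gent replicates 2 and 3 then stood at 0.03 and 0.02, within the Gent+Fos OE range of 0.01 to 0.09. The median log2 fold change of the 33 was 0.19 without Gent replicate 1, 0.25 without Gent replicate 2 and 0.41 without Gent replicate 3. For the tip link and channel genes the length trend removed left Gent replicate 2 at 0.21, above all Gent+Fos OE libraries, and Gent replicate 1 at -0.52.

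**Figure D4:**
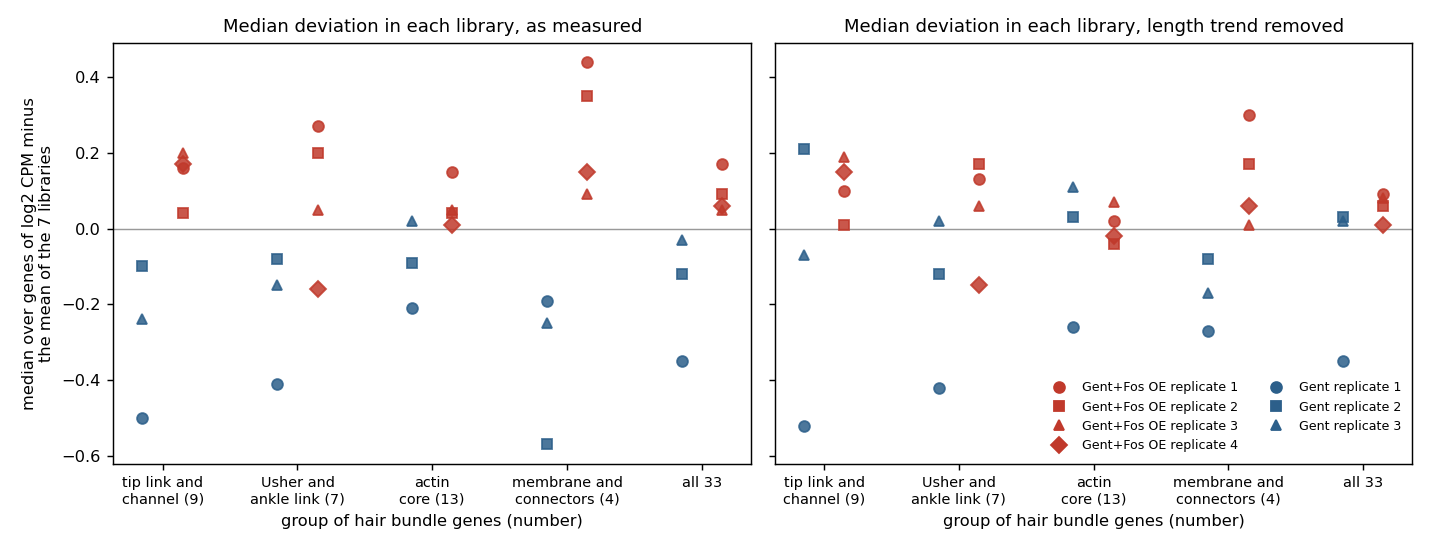
Median deviation of each group of hair bundle genes in each library, in log2 units around the average over libraries, as measured (left) and with the length trend removed (right). Gent replicate 1 lies lowest for all 33 genes in both panels, at -0.35, while Gent replicate 2 moves from -0.12 to 0.03.

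The 7 genes that cells without a bundle also express widely (Myo6, Eps8, Eps8l2, Triobp, Pls1, Gpsm2 and Cib2) had a median log2 fold change of 0.29 as measured and 0.04 with the length correction. For the other 26 these were 0.25 and 0.20. The order as measured turned without Gent replicate 2, with 0.18 for the 7 and 0.34 for the 26. Per length, on the RPKM scale, Ush1c and Pls1 stood highest in Gent, at 68.7 ± 17.2 and 46.9 ± 8.58 RPKM (SD, n = 3), and their libraries overlapped. Cib2 followed at 24.3 ± 10.1 and Myo6 at 17.1 ± 4.79 RPKM, again within their spread. Ptprq at 10.4 ± 5.34 RPKM and Myo7a at 10.3 ± 0.757 RPKM were also not apart. The lowest were Ush1g at 0.432 ± 0.183, Myo3a at 0.422 ± 0.0698 and Adgrv1 at 0.389 ± 0.146 RPKM, which could not be ordered beyond their spread.

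Ratios of genes with the same role were taken within each library, so that the number of hair cells in a pool cancels where both genes come from hair cells alone. The log2 ratio of Tmc2 to Tmc1 per length was -0.24, -0.87, -0.26 and -0.69 with Fos overexpression and -1.73, -0.63 and -1.78 without. Gent replicate 2 lay within the Gent+Fos OE range and the others well below it, so that the difference is larger without Gent replicate 2. The difference of 0.86 had an exact two-sided permutation p of 0.114, adjusted over the 5 ratios to 0.286. With the length trend removed it was 1.09, with p = 0.0286 in the exact test, the smallest possible, and an adjusted p of 0.0714. The ratio of Espnl to Espn was 0.17, 0.30, 0.21 and 0.24 against 0.05, -0.96 and -0.16, and its groups did not overlap. The difference of 0.59 had an exact permutation p of 0.0286 and an adjusted p of 0.143, without Gent replicate 2 it was 0.29, and with the length trend removed it was 0.72. Cdh23 to Pcdh15 differed by -0.45 between the groups, Myo3b to Myo3a by -0.06 and Grxcr2 to Grxcr1 by -0.08, each with overlapping groups and an exact permutation p of 0.371 or more, and without Gent replicate 2 the difference for Cdh23 to Pcdh15 was -0.13.

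**Figure D5:**
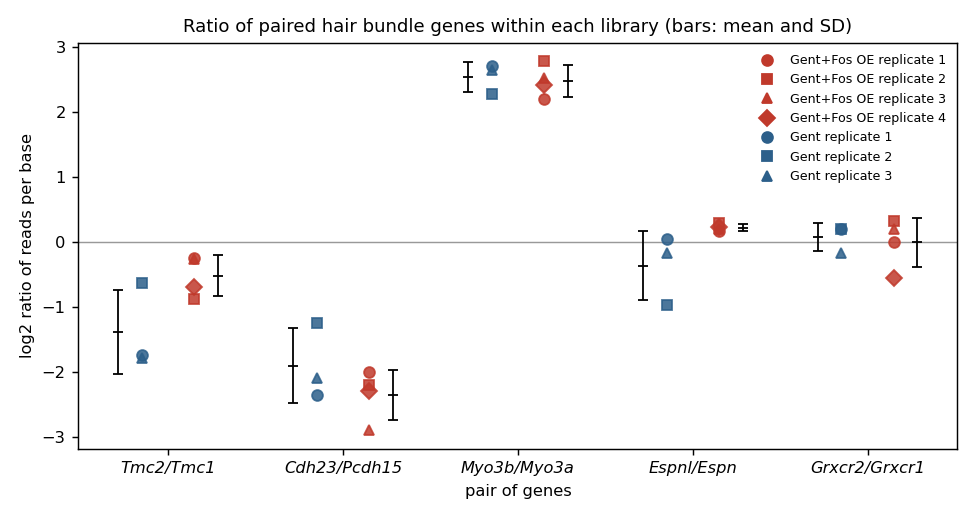
Log2 ratio of reads per base of 5 gene pairs within each library, with the mean and SD of each group. Tmc2/Tmc1 averages -0.52 with Fos overexpression and -1.38 without, and the SDs, 0.31 and 0.65, show how far Gent replicate 2 lies from the other Gent libraries.

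Of 39 other genes listed with the bundle and its cuticular plate, not all of them parts of these structures, 38 were tested. In edgeR 1 was called, Tmprss3, where 0.134% of all tested genes were called higher and 0.28% lower, and 18 of the 38 had a log2 fold change above 0, with a median of -0.02. At an unadjusted p under 0.05, 4 were higher and 6 lower, against 11.1% and 13.4%, and with the length correction 2 and 8, against 8.14% and 14.9%. The groups did not overlap in 2 on the higher side and 7 on the lower, against 11.3% and 12.2%. Besides Actb and Actg1, the 4 lower at that p were Cfl1, Twf2, Capzb and Lcp1, named here after their values were seen. Cofilin (Cfl1), which severs actin filaments, had -0.65, twinfilin-2 (Twf2), of stereocilia tips, -0.59, the capping protein subunit Capzb -0.34, and the bundler Lcp1, also abundant in leukocytes, -0.56, and none passed in edgeR. Without Gent replicate 2, Cfl1 had -0.37 and Capzb -0.22. Tmprss3, a serine protease of the inner ear sensory epithelium whose loss causes deafness, rose. It stood at 109, 118, 127 and 110 CPM with Fos overexpression and at 47.2, 69.4 and 52.3 CPM without, a log2 fold change of 1.04 ± 0.15 (edgeR adjusted p = 0.00839), and of 1.06 with the length correction. Leaving out single libraries took its adjusted p up to 0.0465, past the limit, and 1 of the 7 such fits called it. Myo15a, the motor that carries Eps8 to the tips, had 0.61 ± 0.25 as measured and 0.14 with the length correction, and without Gent replicate 2 these were 0.87 and 0.67. Clic5, at the stereocilia base, had 0.54 and 0.34, and its partner radixin (Rdx) 0.14 and 0.11. Without that library Clic5 had 0.32 and Rdx -0.08 as measured.

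The actins themselves had values below 0. Actb stood at 1895, 1698, 1667 and 1835 CPM with Fos overexpression and at 2420, 2211 and 2223 CPM without, and Actg1 at 1587, 1624, 1511 and 1564 CPM against 1961, 2040 and 1941 CPM. Both were lower in all 4 Gent+Fos OE libraries, at log2 fold changes of -0.37 ± 0.11 and -0.33 ± 0.11, and neither passed in edgeR (adjusted p = 0.116 and 0.122). All cell types express them, and they are near-identical in coding sequence, so that reads matching both were not counted. Baiap2l2 and Pkhd1l1, of the short-row tips and the stereocilia coat, stood under 2 CPM in all libraries.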

How the data were processed

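The 7 count files were compared as Gent+Fos OE (4 libraries) against Gent (3 libraries), with groups taken from the sample labels. The authors deposited whole read counts per gene, not normalized. Per the file headers and the submitters' processing notes, reads were trimmed with Trim Galore 0.6.10, aligned with HISAT2 2.2.1 to mm10 and counted with featureCounts 2.0.6. The paper's methods name mm39 and other versions. The headers show no strand setting and no counting of reads that match several places or genes, and both reads of a pair count, so overlapping genes lose reads. Coordinates and gene lengths (the summed exonic bases) are those of the files. The authors name 3 replicates per condition, whereas the labels list 4 and 3, and all were used.

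Genes were filtered by filterByExpr (17155 of 32285 kept), normalized by TMM and tested by the quasi-likelihood test of edgeR 4.0.16 in R 4.3.3, with Benjamini-Hochberg adjustment over all tested genes. Calls used the limits stated in the study's methods for the adjusted p (0.01) and the absolute log2 fold change (0.25). CPM and RPKM are TMM-normalized, and 95% intervals use the moderated t distribution. The length correction subtracted a loess trend (span 0.3) of log2 CPM deviation on log2 length from each library, inside the model. Ratios and single genes used a two-sided exact permutation test over the 35 choices of 4 of 7 libraries, on log2 values with 0.5 reads added. Alternatives were DESeq2 1.42.0 (total of at least 10 counts), limma-voom 3.58.1 without and with sample quality weights, upper quartile and RLE normalization, a filter of 10 counts per library or none at all, a replicate block, leaving out each library, and, chosen after seeing the data, the length correction without Gent replicate 2. The scripts were tested on simulated data. Within groups, libraries were further apart than read sampling allows (chi-square per degree of freedom from 16.8 to 139.1). Library totals of 27879889 to 34335214 counts put at least 28 counts behind each hair bundle gene in each library, and the precision is set by how far libraries of a group differ.

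The hair bundle genes and the other lists were chosen with earlier results of these data known. The other lists are 39 other genes listed with the bundle, 22 hair cell markers outside the bundle and 14 supporting cell markers. The rest are markers of mesenchyme, macrophages, melanocytes, Schwann cells and glia, neurons, endothelium and striated muscle. Values in each library are given for the 8 hair bundle genes with the lowest unadjusted p and for Myo7a, Tmc1 and Espn. Of the 39 genes listed with the bundle, those named are Myo15a, Baiap2l2, Pkhd1l1, Clic5, Rdx, Actb and Actg1 and any that was called. The hair cell markers named are Otof, Calb2, Slc17a8 and Ocm. Spp1, Pvalb, Srrm4, Kcna10, Cfl1, Twf2, Capzb and Lcp1 were named after their values were seen. A further gene of the rule as first written is not reported here.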

Additional observations from a re-analysis of the deposited data

Results flagged for a closer look

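In 51 values checked over the 4 Gent+Fos OE libraries (CPM of the named genes and the log2 ratios), 4 had 1 library far from the other 3, where chance flags about 1 in 20. Adgrv1 stood at 20.15 CPM in Gent+Fos OE replicate 2 and between 16.4 and 16.9 CPM in the others, all of them above the Gent libraries. Fos stood at 166.98 CPM in Gent+Fos OE replicate 3 and between 148.83 and 151.14 CPM in the others. Slc17a8 was lowest in Gent+Fos OE replicate 4, at 51.76 CPM against 56.57 to 57.44 CPM. Ocm was at 0.07 CPM in Gent+Fos OE replicate 4 and at 0 in the others, which is a difference of a few reads.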

How the results depend on the processing

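Direction held in all 18 alternative fits for 20 of the 33 hair bundle genes, 16 of them higher and 4 lower. Genes called higher over all tested genes numbered 23 as reported, 275 with DESeq2, 531 with quality weights, 63 without a filter, 35 with the length correction, 48 with it and without Gent replicate 2, 114 at an adjusted p under 0.05, and 2 to 45 on leaving out 1 library. Genes called lower numbered 48, and then 336, 430, 141, 95, 127, 205 and 3 to 93. The lowest counts, 2 and 3, came without Gent+Fos OE replicate 3, and without Gent replicate 3 they were 3 and 12. Same-numbered libraries showed no sign of pairing (correlations of their deviations of 0.064, -0.038 and 0.032), which cannot exclude it. The replicate block gave 0 higher and 0 lower calls, and with the length correction 17 and 31. It put Fos at 2.03 with an edgeR adjusted p of 0.0296.

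Hair bundle genes called numbered 0 as reported, 1 with DESeq2, 3 with quality weights, 1 without a filter, 1 at an adjusted p under 0.05, and 0 to 1 on leaving out 1 library, the 1 being Pcdh15 without Gent replicate 2. The replicate block called 0, and the median of the 33 was 0.29 with it. That median was 0.17 with the length correction and ran from 0.19 to 0.41 on leaving out 1 library, the highest being without Gent replicate 3.

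The values of 13 single genes changed sign in at least 1 alternative. With the length correction these were Cib2 (0.043), Myo7a (-0.17), Whrn (-0.013), Eps8 (-0.036), Triobp (-0.41) and Xirp2 (-0.35). The replicate block with the length correction gave Cib2 0.10, Myo7a -0.10, Eps8 -0.14, Triobp -0.28 and Xirp2 -0.34. The length correction without Gent replicate 2 gave Cib2 0.23, Tomt 0.089, Ush1g -0.029, Eps8 -0.038, Triobp -0.029 and Xirp2 -0.079. Quality weights gave Tmie -0.067 and Ush1g -0.48, upper quartile normalization gave Ush1c -0.016 and Triobp -0.039, and no filter gave Triobp -0.0015. On leaving out 1 library the values ran from -0.0051 to 0.29 for Tmie, -0.017 to 0.51 for Lhfpl5, -0.43 to 0.18 for Cib2, -0.46 to 0.056 for Tomt, -0.16 to 0.19 for Ush1c, -0.16 to 0.45 for Ush1g, -0.57 to 0.067 for Espn, -0.083 to 0.14 for Triobp and -0.15 to 0.015 for Gpsm2. Of the ratios, the difference ran from -0.20 to 0.033 for Myo3b to Myo3a and from -0.20 to 0.097 for Grxcr2 to Grxcr1. Why these values changed was not tested.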

Other observations

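Hair cell genes outside the bundle gave a mixed picture. Of 22 markers, 19 were tested and 0 were called in edgeR, with 5 higher and 2 lower at an unadjusted p under 0.05, where 11.1% and 13.4% of all tested genes were. The median log2 fold change was -0.07, and without Gent replicate 2 it was 0.13. It was -0.00045 with the length correction, and 0.16 with it and without that library. DESeq2 called 2 higher, Slc17a8 and Srrm4, and 1 lower, Kcna10, where it called 1.75% of its tested genes higher and 2.14% lower. Srrm4, a splicing factor of hair cells, had 0.87 in edgeR, and Kcna10, a potassium channel, -0.77, both named after their values were seen. Pvalb, parvalbumin, a calcium buffer, was named in the same way. It stood at 9.87, 10.2, 12.9 and 13.8 CPM with Fos overexpression and at 4.48, 10.96 and 4.51 CPM without, where Gent replicate 2 lay within the Gent+Fos OE range. Its log2 fold change of 0.81 ± 0.31 did not pass in edgeR (adjusted p = 0.159), but without Gent replicate 2 it was 1.37 and Pvalb was called (edgeR adjusted p = 0.00464). Limma-voom with sample quality weights called Pvalb and Srrm4 higher and Kcna10 and Spp1 lower, where 3.1% of all tested genes were called higher and 2.51% lower. Otof, which encodes the otoferlin of hair cell synapses, stood at 306, 304, 235 and 192 CPM with Fos overexpression and at 165, 248 and 252 CPM without. Its groups overlapped (0.23 ± 0.20, and -0.00045 with the length correction), and without Gent replicate 2 these values were 0.31 and 0.22. Slc17a8, the vesicular glutamate transporter, stood at 56.6, 57.4, 57.4 and 51.8 CPM against 31.3, 26.0 and 43.1 CPM. Its groups did not overlap, and its log2 fold change of 0.74 ± 0.17 missed the limit in edgeR (adjusted p = 0.0552) and passed in DESeq2 (adjusted p = 0.00236). Calb2, calretinin, stood at 19.5, 21.6, 27.9 and 23.2 CPM against 21.1, 36.3 and 26.1 CPM (-0.27 ± 0.19, and -0.04 without Gent replicate 2). Ocm, a calcium buffer of mature striolar hair cells, was under 0.5 CPM in all libraries and was not tested. The 22 markers summed to 2092 to 2337 CPM with Fos overexpression and to 2433 to 2642 CPM without, and Spp1 alone held 1440 and 1809 CPM of these on average.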
